A study of Mus musculus with 8 samples.

Results

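Colon organoids are hollow epithelial spheres grown from isolated crypts, and the cells described here were the organoid cells that carried much Lgr5 RNA and no read of 2 proliferation genes. They were chosen by measured values: a barcode of an organoid library was a member if it held at least 500 genes, at least 5000 UMIs (unique molecular identifiers, each standing for 1 captured RNA molecule), at most 10% of its UMIs from mitochondrial genes, at least 3 Lgr5 UMIs per 10000 UMIs, and no UMI of Mki67 or Top2a. The rule found 114 cells, 36 in organoid library 1 and 78 in organoid library 2, among 8978 organoid cells that passed the quality filters and 115502 barcodes in the 8 libraries of the series. They were compared with 184 organoid cells, 95 and 89, that met the same filters and held no UMI of Lgr5, Mki67 or Top2a. These are called Lgr5-high and Lgr5 0 cells below.

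The series used epithelium and stroma of young adult male C57BL/6 mice. Organoids were grown in Matrigel from colon crypts without stroma, in a medium with EGF, the TGF-beta receptor inhibitor A83-01, a Wnt surrogate, the GSK3 inhibitor CHIR-99021, R-spondin 1 and noggin, so every cell compared within organoids had both Wnt activators and a BMP antagonist in its medium. Assembloids combined such organoids with cultured colon stromal cells in medium without the Wnt surrogate, CHIR-99021, R-spondin 1 and noggin, and tissue epithelium came from colon crypts. Per the series' design text epithelial cells of the 3 sources were isolated by FACS, and they were captured with 10x Genomics 3' kits. Each source has 2 libraries, which the study's methods give as biological replicates.

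Lgr5 is a receptor for R-spondins and marks the crypt base columnar cells that renew the intestinal epithelium. Wnt ligands stabilise beta-catenin, which joins TCF/LEF factors on target genes; R-spondins strengthen the signal by removing the ubiquitin ligases Rnf43 and Znrf3 from the cell surface. Most Lgr5 cells of the normal crypt divide. Colon epithelium can also take on a fetal-like or regenerative state marked by Ly6a, Anxa1, Clu and others, which is known from injury and from culture.

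Of the passing organoid cells, 226 of 4694 in library 1 and 258 of 4284 in library 2 held a UMI of neither proliferation gene, or 4.81% and 6.02%, and 23.3% and 19.3% after each cell was thinned to 5000 UMIs. The members made up 0.767% of the passing cells of library 1 (exact 95% binomial interval 0.538 to 1.06) and 1.82% of those of library 2 (1.44 to 2.27). When each cell was thinned to 5000 UMIs before the rule was applied, 173 and 229 cells met it, 3.69% and 5.35%, so the size of the class depends on depth. As a share of the cells without Mki67 or Top2a UMIs, Lgr5-high cells were 15.9% and 30.2% as deposited and 15.8% and 27.7% after thinning. Median UMIs per member were 19942.5 and 9014.5, beside 21106 and 9933 in Lgr5 0 cells and 36657.5 and 18140.5 in cells with a Mki67 or Top2a UMI. Mitochondrial UMIs made up a median of 3.06% and 7.60% in members and 2.82% and 6.32% in Lgr5 0 cells, and with cells of at most 5% the comparison below called 475 genes in place of 1380. Intervals here and below cover counting error only.

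By selection, members held a median of 5.06 Lgr5 UMIs per 10000 in library 1 (range 3.11 to 25.1) and 5.98 in library 2 (3.04 to 32.8). The members nearest the threshold had 3.11 and 3.04, the cells just outside it 2.95 and 2.97, and 6 and 11 members lay within 0.5 of it on the inner side against 11 and 14 cells on the outer side. The class is a range of Lgr5 levels cut at a value, and no gap in the data marks it off. No member's barcode was held by both organoid libraries, which shared 24 barcodes, 9 of them passing the filters in both.

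Most members without Mki67 and Top2a UMIs held UMIs of other cell cycle genes, so they are called by their rule and not noncycling here. Of the passing cells, 4468 of 4694 and 4026 of 4284 held a Mki67 or Top2a UMI, and how many of the members' cycle UMIs came from free RNA was not tested. A set of 8 other genes of S, G2 and M phase (Birc5, Ube2c, Cenpf, Ccnb1, Ccnb2, Tpx2, Cdk1 and Ccna2) had no UMI at all in only 1 of the 36 members of library 1 and 4 of the 78 of library 2, and in 19 of 95 and 10 of 89 Lgr5 0 cells. Birc5, a component of the chromosomal passenger complex, was seen in 10 of 36 and 19 of 78 members after thinning to 5000 UMIs (27.8%, exact 95% interval 14.2 to 45.2, and 24.4%, 15.3 to 35.4), and in 17 of 95 and 26 of 89 Lgr5 0 cells. Pcna, the sliding clamp of DNA replication, was seen in 9 and 35 thinned members (25%, 12.1 to 42.2, and 44.9%, 33.6 to 56.6) and in 17 and 32 Lgr5 0 cells. Among cells with a Mki67 or Top2a UMI, Pcna was seen in 2500 of 4468 and 2247 of 4026 after thinning, a higher share than in either of these classes in both libraries. The rule split these cells by 2 proliferation genes, so this higher share is no finding.

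Markers of fibroblasts, of immune, endothelial, glial and neuronal cells and of tuft cells were near 0 in the members. Col1a1, Col1a2, Col3a1, Pdgfra, Dcn and Lum (fibroblasts) and Ptprc, Cd3e, Cd79a and Lyz2 (immune cells) had no UMI in either sum, and the whole fibroblast list of 10 genes summed to 9.91 and 0 CPM (UMIs per 1000000 UMIs of the members' sum in libraries 1 and 2), the immune list of 10 genes to 9.91 and 6.13 and the endothelial, glial and neuronal list of 10 genes to 5.67 and 6.13. Epcam, the surface antigen of epithelial cells, was found in 36 of 36 and 77 of 78 members. The 12 tuft cell genes summed to 7.08 and 7.36 CPM, and no member held a UMI of Chgb, an enteroendocrine granule protein. Goblet cell and colonocyte genes were not near 0. In the members the goblet list summed to 925 and 1634 CPM and the colonocyte list to 2204 and 1820. A count of 0 in 114 cells allows up to 2.63% of cells with a UMI, and sets no limit on cells that express the gene without a captured UMI.

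For the comparison, UMIs of each class were summed within each library, giving 706018 and 815344 UMIs for Lgr5-high cells and 2244044 and 1107220 for Lgr5 0 cells. Levels are given in this CPM unit, in the order library 1, library 2. Sums were tested with edgeR's quasi-likelihood test with the library as a block and Benjamini-Hochberg adjustment over 8632 genes, leaving out Lgr5, Mki67 and Top2a, which chose the cells. At an adjusted p under 0.05, 598 genes (6.93% of those tested) were higher and 782 (9.06%) lower in Lgr5-high cells, together 16.0%. Of these 1380 genes, 1369 had the same direction in both libraries, and 174 rose and 247 fell at least 2-fold in each. The fit has 1 residual degree of freedom and took the spread of every gene from the trend over all genes. Its p-values and standard errors (SE) are therefore too small for genes that vary more than that trend. For this reason both libraries' values are given. Each SE is the size of the log2 fold change over the square root of the test's F statistic, and does not measure the spread between the 2 libraries. DESeq2 called 205 genes, all among the 1380, and a fit in which 12 sums of 6 libraries share the spread called 599. In that fit the Lgr5-high sums of assembloids and tissue came from 5, 7, 17 and 8 cells. These are fewer than the 20 cells set for comparisons between sources, so its spread rests in part on small sums. TMM scaling moved the log2 ratios by -0.188 and -0.171 relative to total UMIs; under total UMIs alone 1493 genes were called, of which 70.1% were higher against 43.3% in the main fit. A gene whose sums of 1 class both lay under the count filter's 10.4 CPM was tested only through the other class, so its direction was fixed by the filter and it is no support. Among called list genes these were Ankrd1, Ereg, Cdkn2b, Cdkn1c, Slc26a3, Muc3, Emp1, Dusp1, Eda2r and 4 enteroendocrine genes, all lower, and Cdc6, which was higher; the counts below include them.

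**Figure D1:**
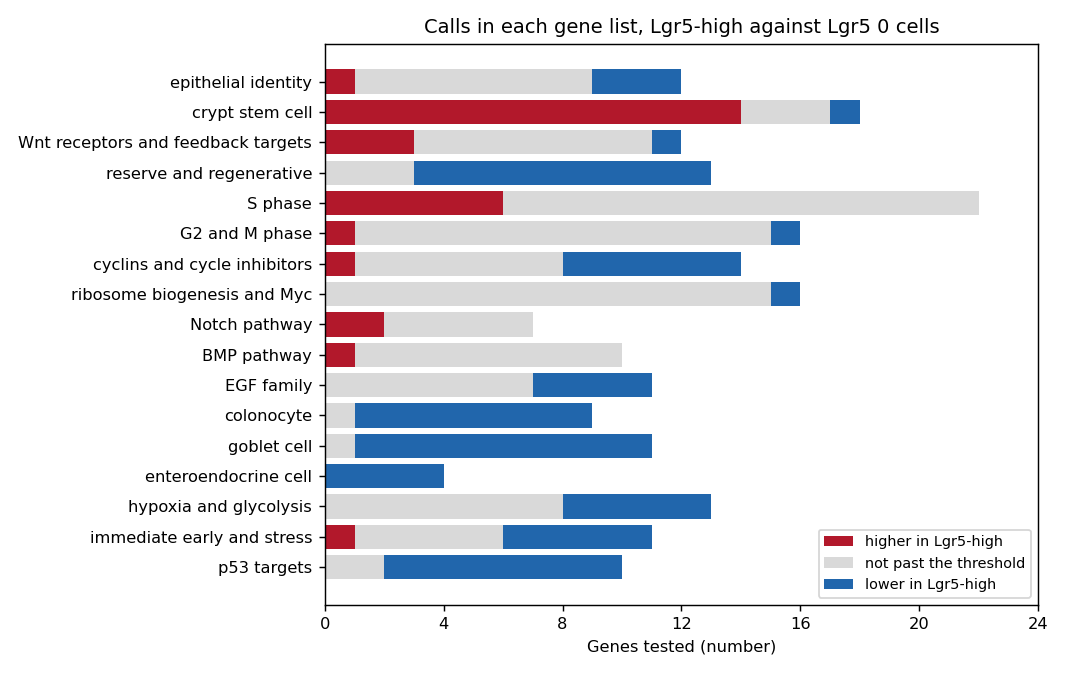
Number of tested genes in each gene list (rows) that were higher, lower or not past the adjusted p of 0.05 in Lgr5-high against Lgr5 0 cells (x axis, number of genes; edgeR, 2 libraries). The crypt stem cell list has 14 of 18 genes higher, the reserve and regenerative list 10 of 13 lower.

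Crypt stem cell genes were the list that rose most. Of 22 genes, 18 passed the filter on low counts, 14 were higher and 1 lower, and the median log2 fold change was 1.23 against -0.01 over all 8632 genes. DESeq2 called 8 of them higher and the 12-sum fit 11, and 10 rose at least 2-fold in each library.

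Smoc2 (ENSMUSG00000023886, GRCm38 chr17:14279506-14404790, plus strand), a secreted matricellular protein of the crypt base, stood at 183 and 124 CPM in Lgr5-high cells and at 17.4 and 7.23 in Lgr5 0 cells. Both Lgr5-high sums lay above both Lgr5 0 sums, with a log2 fold change of 3.41 ± 0.27 (SE, edgeR adjusted p = 1.7e-33). Smoc2 was called under all 12 alternatives tested. Among the 12, leaving out the deepest 5% of cells removed no cell of either class. That alternative repeats the main fit here and in the counts of alternatives below. After thinning, a Smoc2 UMI was found in 19 of 36 (52.8%, exact 95% interval 35.5 to 69.6) and 26 of 78 (33.3%, 23.1 to 44.9) members, against 8 of 95 and 4 of 89 Lgr5 0 cells (8.42%, 3.71 to 15.9, and 4.49%, 1.24 to 11.1).

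Lrig1, an inhibitor of EGF receptor family signalling, stood at 249 and 471 CPM against 51.7 and 133 in Lgr5 0 cells (log2 fold change 1.85 ± 0.18, edgeR adjusted p = 1.4e-21). Slc12a2, the basolateral sodium-potassium-chloride cotransporter, had 659 and 993 against 188 and 371 (1.43 ± 0.14, edgeR adjusted p = 9.58e-21). Kcnq1, a potassium channel subunit, had 261 and 411 against 56.1 and 138 (1.70 ± 0.18, edgeR adjusted p = 4.07e-18). For these genes, too, the lower of the Lgr5-high sums lay above the higher of the Lgr5 0 sums.

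Rgmb, a BMP co-receptor, rose by 1.90 on the log2 scale, Rnf32 by 1.55, Ephb3, a receptor tyrosine kinase that sorts cells along the crypt axis, by 1.53, Cdca7 by 1.36 and the water channel Aqp4 by 1.10, each with libraries that did not overlap. Cdca7 was at 0.28 and not called with cells thinned to 5000 UMIs. Tnfrsf19 (1.52), the cell cycle kinase Cdk6 (0.86) and the sterol acyltransferase Soat1 (0.86) were also called by edgeR. DESeq2 called neither these 3 genes nor Ephb3. The calls of Sox9 (0.62; edgeR adjusted p = 0.023) and Ephb2 (0.49; edgeR adjusted p = 0.045) were lost under 6 and 8 of 12 alternatives. Not every marker of the list moved with Lgr5. The stem cell transcription factor Ascl2 had 45.3 and 36.8 CPM against 28.1 and 16.3 and did not pass (0.70 ± 0.30, edgeR adjusted p = 0.104), nor did Prom1 (0.36) and Vdr (0.76). Cd44, a hyaluronan receptor and Wnt target, had 63.7 and 112 against 87.3 and 156, a log2 fold change of -0.65 ± 0.21 (edgeR adjusted p = 0.020) that 10 of 12 alternatives did not call. Olfm4, which marks stem cells of the small intestine and human colon, had no UMI in either class.

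**Figure D2:**
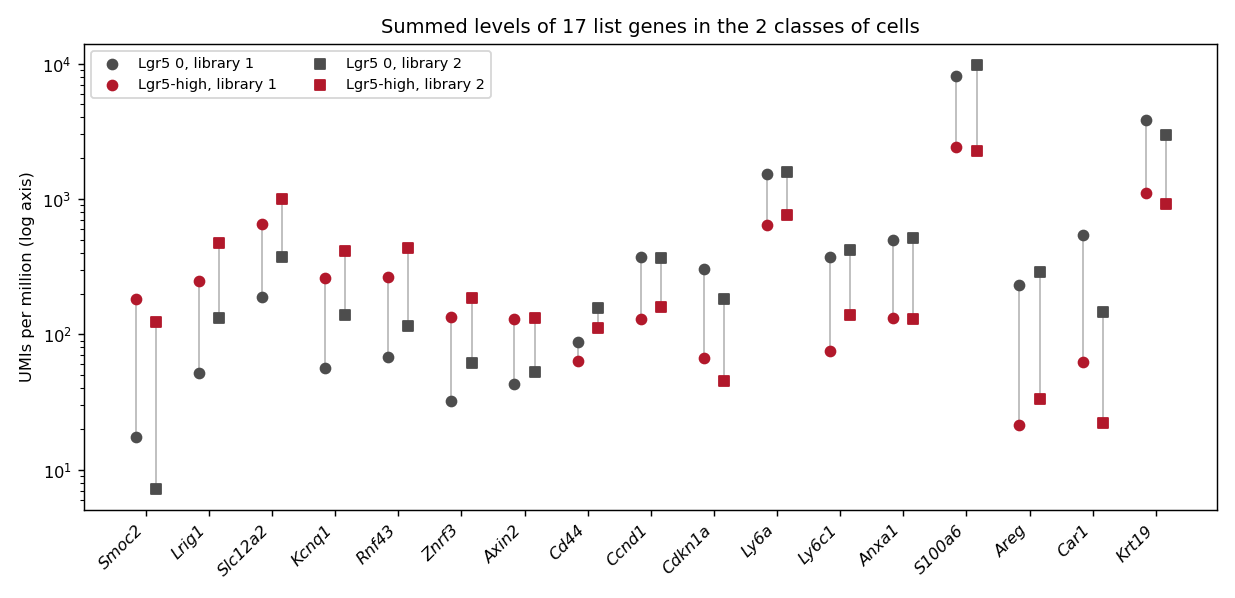
Levels of 17 list genes in the summed Lgr5-high (red) and Lgr5 0 (grey) cells of organoid library 1 (circles) and library 2 (squares), in CPM on a log axis; a grey line joins the classes of a library. Smoc2 to Axin2 are higher and Ccnd1 to Krt19 lower in the Lgr5-high cells of both libraries, and Cd44 is slightly lower.

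Of 21 Wnt receptors and feedback targets, 12 were tested, 3 were higher and 1 lower, with a median of 0.37. The 3 that rose were negative feedback genes of the pathway. Rnf43 had 265 and 437 CPM against 67.7 and 115 (log2 fold change 1.77 ± 0.18, edgeR adjusted p = 8.34e-20). Znrf3 had 135 and 186 against 32.1 and 61.4 (1.65 ± 0.22, edgeR adjusted p = 5.45e-12). Axin2, a scaffold of the beta-catenin destruction complex, had 130 and 132 against 43.2 and 52.4 (1.29 ± 0.22, edgeR adjusted p = 3.72e-07). For each of the 3, both Lgr5-high sums lay above both Lgr5 0 sums, and DESeq2 and the 12-sum fit called all of them. Ccnd1, encoding cyclin D1 and often listed as a Wnt target, moved the other way, with 130 and 158 against 375 and 365 (-1.54 ± 0.17, edgeR adjusted p = 2.08e-16). The receptors Lgr4, Lrp5 and Lrp6, the transducer Ctnnb1 and the factor Tcf7l2 did not pass the test.

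Promoter sequence is shown for genes that moved together, since TCF/LEF factors are known to bind CTTTGA and CTTTGT cores. The RefSeq promoter table (GRCm38.p6) held 11 of the 17 crypt stem cell and Wnt genes called higher, in 15 windows of 250 bases before a start site. The 2 cores, searched on both strands, occurred in 2 of these 15 windows (13.3%), against 27.6% of all 32851 windows in the table. The matches lay in Rgmb and Tnfrsf19. The Tnfrsf19 match precedes a RefSeq start site that lies inside the GENCODE gene (chr14:60963875-61046490, minus strand). The Axin2 window at chr11:108920099-108920348, plus strand, held neither core, which says only that these letters are not in this stretch. The match is in capitals in the lines below, for both genes on the minus strand and read 5′ to 3′. The Rgmb match, on chr17, has its first base 16 bases before the start site. The Tnfrsf19 stretch lies at chr14:61038171-61038200. The Axin2 stretch has no match.
Rgmb: cgtgaaaggcgcCTTTGTgcaagccggt
Tnfrsf19: ctgaatgggggaTCAAAGtgacaaactaga
Axin2: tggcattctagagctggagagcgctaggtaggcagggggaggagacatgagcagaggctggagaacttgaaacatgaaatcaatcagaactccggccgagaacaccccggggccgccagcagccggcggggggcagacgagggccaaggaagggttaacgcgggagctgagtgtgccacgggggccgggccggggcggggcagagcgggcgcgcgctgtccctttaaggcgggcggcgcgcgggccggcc

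Genes of the reserve and regenerative list fell together. Of 17 genes, 13 were tested, none was higher and 10 were lower, each at least 2-fold in both libraries, with a median log2 fold change of -2.09. DESeq2 called 9 of them lower and the 12-sum fit 10. S100a6, a calcium-binding protein, had 2433 and 2279 CPM in Lgr5-high cells against 8127 and 9731 in Lgr5 0 cells (-2.10 ± 0.07, edgeR adjusted p = 4.81e-169). Anxa1, an annexin of fetal-like and repairing epithelium, had 132 and 129 against 496 and 514 (-2.13 ± 0.17, edgeR adjusted p = 6.35e-33). Ly6a, which encodes Sca-1, had 642 and 763 against 1528 and 1579 (-1.33 ± 0.12, edgeR adjusted p = 5.46e-28). A Ly6a UMI was seen in 29 of 36 and 66 of 78 members after thinning, and in 85 of 95 and 81 of 89 Lgr5 0 cells; how many of these UMIs came from free RNA was not tested.

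Ly6c1 fell by 2.10 on the log2 scale, Anxa3 by 1.64, Krt7 by 1.55, Msln by 2.60, the interleukin 1 receptor antagonist Il1rn by 2.95 and Clu, a secreted chaperone of revival stem cells, by 2.09. Clu was low in both classes, with 12.7 and 13.5 CPM against 51.7 and 47.9, and its call was lost when Lgr5 0 cells were matched on depth. Ankrd1, a target of Yap, had no UMI in either Lgr5-high sum and 27 and 96 UMIs in the Lgr5 0 sums, at least 18.6-fold lower against a limit of 3 UMIs over both sums; its direction was fixed by the filter, which leaves 9 other genes lower. Bmi1 and Hopx, named as markers of reserve stem cells, did not pass.

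**Figure D3:**
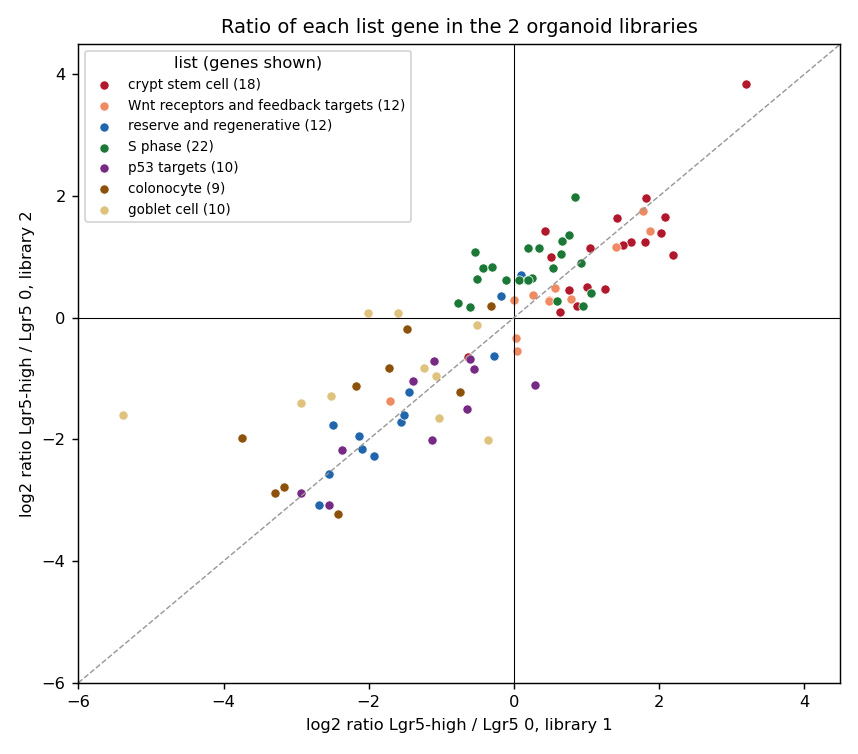
Log2 ratio of Lgr5-high to Lgr5 0 sums (TMM scaled) in organoid library 1 (x axis) and library 2 (y axis) for the genes of 7 lists with a UMI in both Lgr5-high sums, 1 point a gene; the dashed line marks equal ratios. Most crypt stem cell genes lie in the upper right and regenerative genes in the lower left, while goblet cell genes lie farther from the line.

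Cdkn1a and most tested p53 targets were lower in the Lgr5-high cells. Cdkn1a, encoding p21, had 66.6 and 45.4 CPM against 305 and 183 (-2.29 ± 0.21, edgeR adjusted p = 1.3e-24) and was found in 9 of 36 and 13 of 78 thinned members (25%, exact 95% interval 12.1 to 42.2, and 16.7%, 9.18 to 26.8) against 46 of 95 and 32 of 89 Lgr5 0 cells (48.4%, 38.0 to 58.9, and 36.0%, 26.1 to 46.8). Cdkn2b, encoding p15, had 8.50 and 2.45 against 49.0 and 27.1 (-2.98 ± 0.44, edgeR adjusted p = 1.49e-09), a direction fixed by the filter. Of 14 tested cyclins and cycle inhibitors 6 were lower and 1 higher, with a median of -0.24, while DESeq2 and the 12-sum fit each called 3 lower. The list holds genes that drive and genes that restrain division, and without Cdkn2b and Cdkn1c 4 were lower, among them cyclin D1 and p21. The calls of cyclin D2 (Ccnd2, -0.57) and p57 (Cdkn1c, -1.47) were lost in 6 of 12 and 5 of 10 alternatives, DESeq2 and the 12-sum fit among them.

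Of 10 tested p53 targets, 8 were lower and none higher, with a median of -1.22, and DESeq2 called 3 and the 12-sum fit 6. Without Eda2r, whose direction was fixed by the filter, 7 were lower. Gdf15, a stress cytokine, had 11.3 and 12.3 CPM against 80.2 and 84.0 (-2.97 ± 0.33, edgeR adjusted p = 3.18e-17). Ccng1 fell by 1.51 and Mdm2, the p53 ubiquitin ligase, by 1.18 on the log2 scale, and the call of Mdm2 was lost in 4 of 12 alternatives, DESeq2 among them. Cdkn1a counts in both lists.

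A minority of replication genes was higher and few mitotic genes were called. All 22 S phase genes were tested, 6 were higher (Mcm4, Mcm6, Mcm7, Rrm1, Cdc6 and Hells) and none was lower, with a median of 0.46; without Cdc6 this leaves 5 higher. No S phase gene rose 2-fold in each library, DESeq2 called none and the 12-sum fit only Mcm7. All 6 calls were lost with cells thinned to 5000 UMIs, and also with cells of at most 5% mitochondrial UMIs. The list summed to 957 and 1875 CPM in Lgr5-high cells and to 818 and 1049 in Lgr5 0 cells. Of 16 tested G2 and M phase genes, the tubulin Tubb4b was lower (-0.93) and Hmgb2 was called higher (0.42), with a median of 0.24. Hmgb2 was called in 5 of 12 alternatives and stood at -0.13 after thinning. Since Mki67 and Top2a chose both classes, these lists describe cells already poor in cycle RNA.

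**Figure D4:**
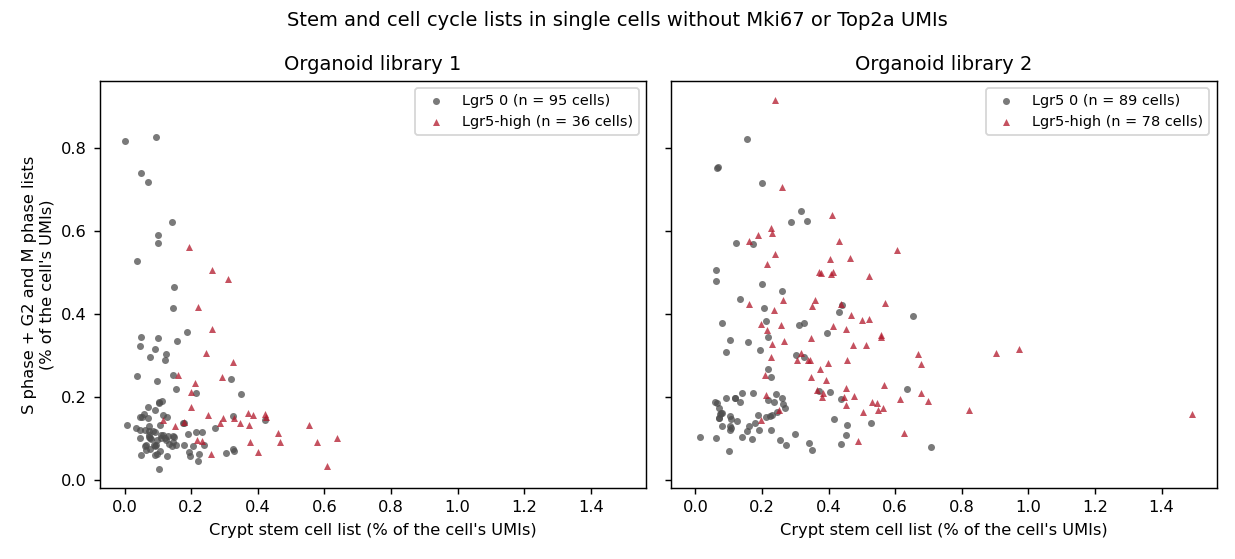
Share of each cell's UMIs in the crypt stem cell list (x axis, %) and in the S phase plus G2 and M phase lists (y axis, %) for Lgr5-high (red triangles) and Lgr5 0 (grey circles) cells of each organoid library. The medians of the stem list are 0.294% and 0.408% in Lgr5-high and 0.107% and 0.200% in Lgr5 0 cells, and both classes spread along the cycle axis.

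Lgr5-high cells that did hold a Mki67 or Top2a UMI, 600 in library 1 and 1518 in library 2, give a further point of reference, as a description. Their stem list summed to 2660 and 3703 CPM, beside 3248 and 4125 in the members and 1185 and 1925 in Lgr5 0 cells. Their regenerative list summed to 3714 and 4368, beside 4059 and 3984 in the members and 12373 and 14025 in Lgr5 0 cells. Both sums of the members were nearer to the Lgr5-high cells with proliferation RNA than to the Lgr5 0 cells in both libraries. Both Lgr5-high classes were chosen by the same Lgr5 threshold and the Lgr5 0 cells by its absence, so this nearness is no support. Lgr5 0 cells with proliferation RNA were not summed. For S phase the order was different, with 5298 and 4736 against 957 and 1875 in the members; the rule used 2 genes of the cell cycle, so this is no finding.

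Genes of differentiated cells were mostly lower in Lgr5-high cells. Of 9 tested colonocyte genes 8 were lower and none higher, with a median of -1.68, of which 5 were not fixed by the filter. Car1, a carbonic anhydrase of colonocytes, had 62.3 and 22.1 CPM against 539 and 147 (-3.16 ± 0.22, edgeR adjusted p = 5.05e-43), and Car2, its relative, did not pass the test (-0.06 ± 0.11). The guanylin precursor Guca2a fell by 1.68 on the log2 scale. As medians over thinned cells, the colonocyte list had 10 UMIs in library 1 and 8 in library 2 in members, and 13 and 8 in Lgr5 0 cells. Single Lgr5 0 cells reached 212 and 55 UMIs of the list, and single members at most 30 and 20.

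Of 11 tested goblet cell genes 10 were lower, with a median of -1.13, of which DESeq2 called 2 and the 12-sum fit 5. Muc2, the secreted mucin of goblet cells, had 0 and 50.3 CPM in Lgr5-high cells against 112 and 369 (-3.54 ± 0.26, edgeR adjusted p = 2.28e-40, DESeq2 adjusted p = 0.36). Its log2 ratios were -7.50 in library 1, where the members held no UMI, and -3.03 in library 2, a gap that the SE does not show. Spink4 had 24.1 and 308 against 910 and 825, so its level in members was higher in library 2 than in library 1. Tff3, a trefoil peptide, had 533 and 827 against 1410 and 694: its ratio was below 1 in library 1 only, and its call (-0.75) was lost in 5 of 12 alternatives. A median of 1 goblet UMI per thinned cell was found in members and in Lgr5 0 cells of both libraries, with single members reaching 63 and 144. Enteroendocrine genes rested on very few cells: Chgb had 143 and 572 UMIs in 2 and 3 Lgr5 0 cells and none in the members, at least 108-fold lower in the sums. Only 4 of the 14 genes of that list (Chga, Chgb, Neurod1 and Neurog3) passed the count filter, through the Lgr5 0 class where they are high, so their direction was fixed by the filter and is no support. Their median was -7.01, or -5.32 with the genes absent from members set to their bound, and DESeq2 called 1 of them.

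Areg, encoding the EGF receptor ligand amphiregulin, was among the strongest differences outside lineage genes. It had 21.2 and 33.1 CPM in Lgr5-high cells and 233 and 290 in Lgr5 0 cells (-3.44 ± 0.24, edgeR adjusted p = 9.79e-44), and its thinned detection was 3 of 36 and 9 of 78 members (8.33%, exact 95% interval 1.75 to 22.5, and 11.5%, 5.41 to 20.8) against 32 of 95 and 34 of 89 Lgr5 0 cells. Its relative Ereg had 0 and 1.23 against 13.4 and 28, a direction fixed by the filter. Of 11 tested genes of the EGF family and its feedback, 4 were lower and none higher, with a median of -0.54, or 3 lower without Ereg; DESeq2 called 1 and the 12-sum fit 2. The call of Btc (-1.26), encoding betacellulin, was lost in 7 of 11 alternatives. Egfr itself was called (-0.68), with log2 ratios of 0.19 in library 1 and -1.21 in library 2, and 9 of 12 alternatives did not call it.

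Of 7 tested Notch genes, the receptor Notch1 (1.38) and the target Hes1 (0.69) were higher, and of 10 BMP pathway genes only Id3 (0.85), none of them called by DESeq2 or the 12-sum fit. Id3 was called in 6 of 12 alternatives and stood at -0.43 with cells thinned to 5000 UMIs. Hypoxia and glycolysis genes had 5 of 13 lower, with a median of -0.44 and Ndrg1 at -1.67; DESeq2 called 1 and the 12-sum fit 2. Of 11 immediate early and stress genes 5 were lower and 1, Jun (0.53), higher, with a median of -0.15. Without Dusp1, whose direction was fixed by the filter, 4 were lower. DESeq2 called none of the list and the 12-sum fit 2, both lower, and 8 of 12 alternatives did not call Jun. Of 16 ribosome biogenesis genes 1 was lower, with a median of -0.17. In the epithelial identity list 3 keratins were lower, Krt19 by 1.93, Krt8 by 1.74 and Krt18 by 0.99 on the log2 scale, and the intestinal transcription factor Cdx1 was called higher (0.67), a call lost in 5 of 12 alternatives, DESeq2 and the 12-sum fit among them, while Epcam, Cdh1, Cdx2 and Hnf4a did not pass.

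Outside the lists, the called genes averaging 5 or more in log2 CPM with large positive fold changes included Htr4, a serotonin receptor, with 120 and 183 CPM against 12 and 34.3 (2.64 ± 0.25, edgeR adjusted p = 1.64e-23). Gm20275 (2.15), Jaml (2.02), Ifitm3 (1.92), Tmem131l (1.87), the kinase Wnk2 (1.85), Kank1 (1.74), the exchange factor Vav3 (1.68), the transcription factor Myb (1.68) and Arhgef26 (1.65) were others. Ifitm3, an interferon-induced membrane protein, had 928 and 384 against 212 and 92.1, so its level was higher in library 1 in both classes, with log2 ratios between the classes of 1.94 and 1.88. At the other end, Kcnb2 (-3.65), S100a14 (-3.10), Ly6g (-2.96), the lectin Lgals3 (-2.64), Krt4 (-2.63), Sval1 (-2.54), Hsd17b2 (-2.52) and Tnfrsf12a (-2.33) had the lowest fold changes beside genes already named. Sval1 had log2 ratios of -4.21 in library 1 and -1.43 in library 2, and DESeq2 did not call it (DESeq2 adjusted p = 0.317). S100a14 had 59.5 and 52.7 CPM against 478 and 377, and Ly6g, of the same gene family as Ly6a and Ly6c1 and whose reads could be shared, had 49.6 and 148 against 466 and 828.

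The members also varied among themselves. The Fano factor (variance over mean of UMIs after thinning, 1 for counting noise alone) had a median of 1.03 and 1.11 over 5513 genes. Ranked by the lower value of the 2 libraries it was highest for Tff3, with 26.5 and 40.3, where 9 of 36 and 29 of 78 members held any UMI and single cells reached 46 and 83. Malat1, a nuclear noncoding RNA, had 14.3 and 49.4, the latter above Tff3. Reg4, a marker of deep crypt secretory cells, followed the same pattern in fewer cells, 1 and 2 of them with up to 10 and 13 UMIs (Fano factor 10.0 and 10.8). Ifitm3 (4.52 and 4.44) and Nupr1 (3.48 and 3.66), a stress-responsive chromatin protein, were spread over 29 and 48 and over 18 and 41 members. In Lgr5 0 cells the factor was 36.4 and 35.1 for Tff3, 140 and 153 for Malat1 and 6.02 and 16.95 for Reg4. It was 6.35 and 2.59 for Ifitm3 and 13.1 and 14.6 for Nupr1, so such spread was not particular to the members. Whether any of these members were 2 cells in 1 droplet was not tested; no member was among the deepest 5% of cells of its library.

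The same rule found 5 and 7 cells in the assembloid and 17 and 8 in the tissue libraries, too few for the planned comparison between sources. Of the passing cells these were 0.0469% and 0.114% in assembloids and 0.760% and 0.418% in tissue, and after thinning 0.0844% and 0.211% and 0.939% and 0.732%. Of the cells without Mki67 or Top2a UMIs they were 0.154% and 0.257% in assembloids and 1.30% and 0.663% in tissue. In tissue such cells had a stem list median of 0.462% and 0.408% of UMIs, and a regenerative list median of 0.189% and 0.205% against 0.386% and 0.323% in the organoid members.

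A wider class, cells with any Lgr5 UMI and none of Mki67 or Top2a, was therefore compared after seeing these numbers: 131 and 169 organoid, 63 and 116 assembloid and 76 and 48 tissue cells, of which the members are 36 and 78. Cells under the Lgr5 threshold were 95 and 91 of the organoid and 59 and 40 of the tissue cells. These held a median of 2 Lgr5 UMIs in each organoid library and 1 in each tissue library, so the class was not matched on Lgr5 level. In 1 edgeR fit over the 6 libraries, 1063 genes (9.96% of 10670) were higher and 1438 (13.5%) lower in organoids than in tissue. Together these 2501 genes fell to 1042 without tissue library 1 and to 1359 without tissue library 2. Of 19 tested stem genes 5 were higher and 2 lower (median 0.23 against 0.02 over all genes); Tnfrsf19, 1 of the 5, was tested only through organoids, so its direction was fixed by the filter. Smoc2 had 108 and 58.8 CPM in organoids, 94.3 and 83 in tissue and 1.23 and 1.66 in assembloids, and its difference between organoids and tissue did not pass (0.07 ± 0.34 (SE), edgeR adjusted p = 0.912). Of 12 regenerative genes 9 were higher in organoids and none lower (median 1.83): Ly6a had 924 and 1105 in organoids against 57.5 and 104 in tissue (3.77 ± 0.38, edgeR adjusted p = 1.52e-07), and Ly6c1 165 and 260 against 0 and 0, at least 129-fold higher. Other lists also had no gene lower in organoids. Of 22 S phase genes 13 were higher (median 1.29), 2 of them, Cdc6 and Hist1h1b, with a direction fixed by the filter. Of 19 G2 and M phase genes 10 were higher (median 1.40), of 13 hypoxia and glycolysis genes 9 (median 2.10) and of 16 ribosome biogenesis genes 9 (median 1.20).

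Of 13 tested Wnt receptors and feedback targets in this wider class, 5 were higher and 1 lower in organoids, with a median of -0.22. Those higher were Ccnd1 (2.10), Myc (1.72), Axin2 (1.30), Rnf43 (1.10) and Sp5, which had no UMI in tissue (at least 9.52-fold higher, a direction fixed by the filter), and the receptor Fzd5 was lower (-1.22). Znrf3 (-0.24), Lgr4 (-0.81), Lrp6 (-0.62) and Tcf7l2 (-0.28) did not pass. In tissue, 12 of 17 colonocyte, 12 of 14 goblet and 13 of 14 immediate early genes were higher than in organoids, with the direction of Car4 and Slc37a2, 2 of the 12 colonocyte genes, fixed by the filter, and 1 colonocyte gene, Car2, was higher in organoids. Muc2 had 13.9 and 72.4 CPM in organoids against 2987 and 6828 in tissue, and Fosb 8.92 and 15.4 against 414 and 427. Of 10 tested enteroendocrine genes 8 were higher in tissue, 2 of them, Gcg and Fev, with a direction fixed by the filter. Chgb had 0.357 and 0.877 CPM in organoids against 833 and 341 in tissue. The tissue sums of this class thus carried goblet and enteroendocrine RNA. Source, medium and dissociation differ together between these groups and cannot be told apart.

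**Figure D5:**
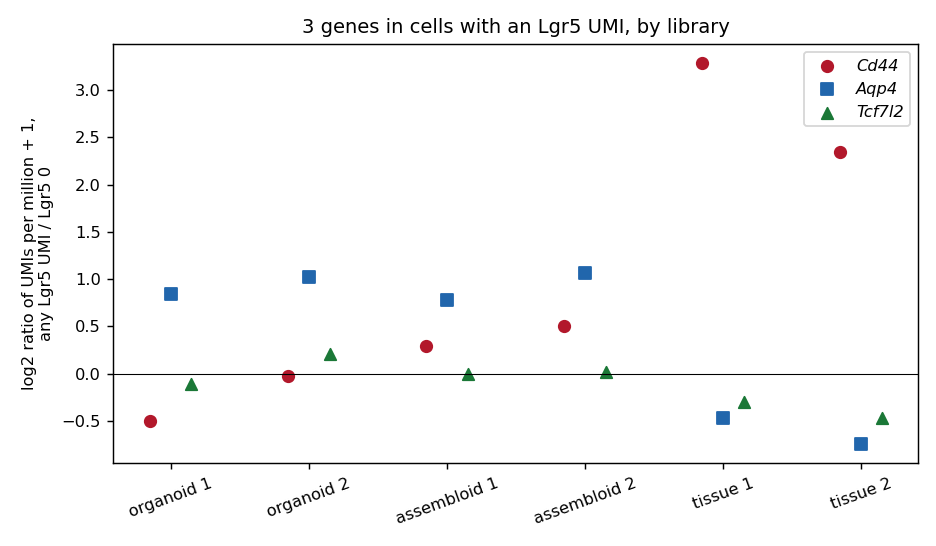
Log2 ratio of CPM plus 1 between cells with any Lgr5 UMI and Lgr5 0 cells (y axis; both without Mki67 or Top2a UMIs) for Cd44, Aqp4 and Tcf7l2 in each of 6 libraries (x axis), 1 point a library. Cd44 lies at 3.29 and 2.34 in tissue and at -0.50 and -0.03 in organoids, and Aqp4 lies above 0 in organoids and assembloids and below 0 in tissue.

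The contrast of Lgr5-bearing with Lgr5 0 cells was itself compared between organoids and tissue in that wider class. Of 12287 genes tested, 356 differed, 214 of them in the direction of a higher ratio in organoids, and DESeq2 called 252. In the stem and Wnt lists these were Cd44, Aqp4 and Tcf7l2. Cd44 was higher in Lgr5-bearing than in Lgr5 0 cells of tissue, with log2 ratios of 3.29 and 2.34, and not in organoids, with -0.50 and -0.03. Aqp4 had 0.84 and 1.02 in organoids and -0.48 and -0.74 in tissue. Levels in Lgr5-bearing cells alone did not pass between organoids and tissue (edgeR adjusted p = 0.068 for Cd44, 0.37 for Aqp4, 0.57 for Tcf7l2). There the log2 fold changes, organoid against tissue, were 0.92, -0.39 and -0.28. Each was opposite in sign to the difference in ratio of its gene. Lgr5 0 cells were 95 and 89 of the 226 and 258 organoid cells without Mki67 or Top2a UMIs. In tissue they were 1234 and 1159 of 1310 and 1207. How far the differences in ratio come from the Lgr5 0 cells was not tested.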

How the data were processed

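Single-cell RNA was measured in 8 libraries, 2 each of organoid, assembloid and tissue epithelium and of assembloid stroma; the stromal libraries were not used here. The authors deposited filtered matrices of UMI counts, not normalized, for 32285 genes. The file headers name Cell Ranger 7.1.0 for epithelium and 6.0.1 for stroma, and the submitters' processing notes name Cell Ranger 6 and mm10. Library totals were 191255856 and 128355905 UMIs for organoid libraries 1 and 2. Gene positions came from GENCODE (GRCm38) and promoters from RefSeq (GRCm38.p6).

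The members and gene lists were chosen with earlier results of these data known. Cells needed at least 500 genes, 5000 UMIs and at most 10% mitochondrial UMIs. UMI counts were summed per library and class and tested with edgeR 4.0.16 (glmQLFit and glmQLFTest, filterByExpr, TMM, R 4.3.3), with the library as a block, since both classes come from the same capture. Genes past an adjusted p of 0.05 are called. DESeq2 1.42.0 was an alternative, and a fit of 12 sums (6 epithelial libraries by 2 classes) another. The 12 sums kept Lgr5-high sums of under 20 cells from assembloids and tissue. Ratios within a library used an added count of 0.5 for the organoid sums and CPM plus 1 for the wider class. The text may name any list gene and, outside the lists, the 15 highest and 15 lowest called genes averaging 5 or more in log2 CPM with the same sign in both libraries; the spread among members names the 15 highest Fano factors. Mitochondrial, ribosomal protein, immunoglobulin and rule genes were left out, and some genes that the rule names are not reported here. A fold against a class at 0 was computed against a limit of 3 UMIs over both sums. No doublet caller was run. Alternatives were total UMI scaling, no count filter, no block, matched depth, thinning to 5000 UMIs, stricter cell filters and each library left out. The statistics were tested on simulated data. Every simulated gene had the same spread beyond counting noise. The simulation therefore could not test p-values of genes that vary more than the trend. Python 3.11.15, numpy 2.4.6, pandas 2.3.3, scipy 1.17.1 and matplotlib 3.10.9 were used. The wider class of cells with any Lgr5 UMI was chosen after seeing the data. The study's methods give the libraries of a group as biological replicates.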

Additional observations from a re-analysis of the deposited data

Results flagged for a closer look

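For 3 genes of the stem cell and Wnt lists, the difference between cells with any Lgr5 UMI and Lgr5 0 cells, neither with a Mki67 or Top2a UMI, was not the same in organoids and tissue by edgeR's quasi-likelihood test of the difference over 12 sums. Cd44 differed by -3.08 ± 0.31 on the log2 scale (organoid minus tissue, SE; adjusted p = 0.000519), with log2 ratios of -0.50 and -0.03 in organoids, 0.29 and 0.51 in assembloids and 3.29 and 2.34 in tissue. Aqp4 differed by 1.76 ± 0.17 (adjusted p = 0.000513), with 0.84 and 1.02 in organoids, 0.78 and 1.06 in assembloids and -0.48 and -0.74 in tissue. Tcf7l2 differed by 0.65 ± 0.15 (adjusted p = 0.0393), with -0.11 and 0.21 in organoids and -0.30 and -0.47 in tissue, and DESeq2 did not call it (adjusted p = 0.138). For none of the 3 genes did the level in Lgr5-bearing cells alone pass between organoids and tissue. Those log2 fold changes, organoid against tissue, were 0.92 for Cd44, -0.39 for Aqp4 and -0.28 for Tcf7l2. Each was opposite in sign to the difference in ratio of its gene. How far these differences come from the Lgr5 0 cells was not tested.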

How the results depend on the processing

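The 1380 genes called between Lgr5-high and Lgr5 0 cells became 205 with DESeq2, 599 with 12 sums sharing the spread, 377 with Lgr5 0 cells matched on depth, 475 with at most 5% mitochondrial UMIs and 2133 with cells chosen after thinning. Without the replicate block, which pairs the classes of a library, 107 genes were called. Fewer cells or genes enter the depth and mitochondrial alternatives. The cause of the change in calls was not tested for any alternative. No count filter, at least 5 Lgr5 UMIs per 10000, at least 10000 UMIs, no shared barcodes and total UMIs gave 1266, 1068, 1061, 1224 and 1493. Leaving out shared barcodes kept 94 of the 95 Lgr5 0 cells of library 1 and every other cell. Leaving out the deepest 5% of cells removed no cell of either class, so its 1380 repeats the main fit. No call of any of these alternatives had the opposite direction of a call in the main fit. After thinning, members were 3.69% and 5.35% of cells, and the log2 fold changes of Cd44, Hmgb2 and Id3 were 0.031, -0.13 and -0.43. With 1 library left out, Egfr ranged from -1.21 to 0.19, Tff3 from -1.59 to 0.082 and Car2 from -0.31 to 0.20, and Car2 was 0.12 under total UMIs. Between organoids and tissue, 2501 called genes of the wider class ranged from 1042 to 2911 with 1 library left out; 1042 and 1359 were without tissue library 1 and 2. That count was 2268 with the replicate block, 1757 with DESeq2 and 2973 with no filter. Smoc2 between organoids and tissue was -0.0015 with the replicate block and ranged from -0.57 without organoid library 1 to 0.58 without organoid library 2. Leaving out cells with a UMI of 8 more cycle genes left 1 and 4 members, and the comparisons between sources with members alone had under 20 cells per library, so these were not run. Membership rests on few Lgr5 UMIs per cell, and 2 libraries limit every p-value.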
